A study of Mus musculus with 6 samples.

Results

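A total of 425 intergenic regions carried H3K27me3 (histone H3 trimethylated at lysine 27) in mouse ovarian granulosa cells (GCs), out of 12430 regions in all. They were chosen by where the peaks of the 6 libraries lay. A region had to hold peaks of at least 3 libraries, with at least 1 of each group, to lie outside every annotated gene body and more than 2 kb from every transcription start site (TSS), and to be under 50% soft-masked, that is, under 50% of its bases marked as repeats in the mm10 (GRCm38) assembly. Of the 12430 regions, 3000 met the criterion on libraries, 767 of these lay outside gene bodies, 513 of them were over 2 kb from every TSS, and 88 more were left out as repeats. The presence of a peak in a library was therefore selected on and is given below as a description only.

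The mark was profiled by CUT&Tag, in which an antibody brings a transposase to the marked chromatin of permeabilised cells and sequencing adapters are inserted there. Female ICR mice, 3 weeks old, had received pregnant mare serum gonadotropin to start follicle growth, and then a single intraperitoneal injection of phosphate-buffered saline (PBS, the vehicle) or of cyclophosphamide (CTX, an alkylating chemotherapy drug). GCs were collected 6 h after that injection, and each library pooled the cells of 3 animals, so that variation between single mice could not be seen. There were 3 PBS and 3 CTX libraries, and both groups had been primed with the gonadotropin.

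H3K27me3 is written by Polycomb repressive complex 2, through its catalytic subunit EZH2 or EZH1, and is read by Polycomb repressive complex 1, which compacts the chromatin. In differentiated cells it covers above all the promoters of silent developmental regulators, many of which have promoters rich in CpG dinucleotides. It also spreads over the sequence around such genes and over distal elements that are poised or closed in that cell type.

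The label of the cells was examined at promoters before the regions were described. None of 15 granulosa cell genes, among them Foxl2, Fshr, Amh and Cyp19a1, had a peak within 2 kb of a TSS in any library. Of 13 genes of oocytes, theca, endothelium and blood, 2 had one, Insl3 in 5 libraries and Ptprc in 1. Because the mark is found at silent genes, the absence of peaks at granulosa genes gives no view of which other cells were present.

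The sequence at the summit is shown first for 4 regions, of which 3 were among the 5 highest-ranked ones whose nearest protein-coding gene encodes a developmental transcription factor (Tfap2c, Sp5 and Twist1), and the other was the highest-ranked one of all that shared no sequence with another intergenic region (Axin2). They were chosen after the values were seen. Even in the 200 bases shown, those near Tfap2c, Twist1 and Axin2 held more CpG than the median over the 425 regions, which was 5 in 300 bp at the summit. For Sp5 the shorter window cannot be set against that median. The rank of a region was the mean over the libraries of its peak's percentile by −log10 q-value within each library's own list. Each line gives 200 bases of the plus strand of GRCm38 around the summit with the highest −log10 q-value, and capitals mark CpG dinucleotides. 
Tfap2c, chr2:172546563-172546762: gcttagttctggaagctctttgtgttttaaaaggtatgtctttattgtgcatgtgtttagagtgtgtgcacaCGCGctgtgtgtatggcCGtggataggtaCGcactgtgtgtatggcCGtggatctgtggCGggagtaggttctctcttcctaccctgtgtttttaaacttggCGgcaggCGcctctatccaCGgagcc
Sp5, chr2:70472572-70472771: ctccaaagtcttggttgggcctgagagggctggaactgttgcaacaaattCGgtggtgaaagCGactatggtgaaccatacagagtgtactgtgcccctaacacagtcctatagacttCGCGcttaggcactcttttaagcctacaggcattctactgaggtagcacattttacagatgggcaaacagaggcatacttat
Twist1, chr12:33967471-33967670: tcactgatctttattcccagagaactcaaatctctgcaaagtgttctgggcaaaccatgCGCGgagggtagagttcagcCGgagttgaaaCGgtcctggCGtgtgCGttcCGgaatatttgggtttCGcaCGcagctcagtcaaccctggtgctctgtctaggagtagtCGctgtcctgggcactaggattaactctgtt
Axin2, chr11:109011609-109011808: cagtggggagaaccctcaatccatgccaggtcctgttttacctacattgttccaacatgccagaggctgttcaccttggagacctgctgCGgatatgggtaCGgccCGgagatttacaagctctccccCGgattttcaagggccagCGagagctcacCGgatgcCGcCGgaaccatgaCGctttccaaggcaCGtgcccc

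These windows held 9 CpG near Tfap2c, 4 near Sp5, 10 near Twist1 and 10 near Axin2. The regions lay 2.06 kb from the nearest TSS of Tfap2c, a factor of trophoblast and germ cells, 2.14 kb from Sp5, a target of WNT signalling, and 9.63 kb from Twist1, a factor of mesoderm. The regions near Tfap2c and Axin2 were intergenic in the GENCODE annotation but overlapped a gene body of RefSeq. That was so for 98 of the 425 regions (23.1%), with 66 overlapping a long non-coding RNA gene and 29 a protein-coding gene.

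To describe where the regions lay, distances to genes were measured. The median distance to the nearest TSS of any gene was 9.81 kb, with the middle of the distribution between 5.24 and 21.9 kb, against a median of 26.5 kb for intergenic positions taken at every 1 kb of the genome. There were 104 regions between 2 and 5 kb of a TSS, 113 between 5 and 10 kb, 87 between 10 and 20 kb, 80 between 20 and 50 kb, 31 between 50 and 100 kb and 10 farther away. At the limit of 2 kb, the 2 closest regions kept lay 2010 and 2033 bp from the TSS of Fbll1 and Gm22646, and a region left out lay 2000 bp from Dmrta2os. At the limit on repeats, regions near Polr3k and Atg7 were kept at 49.6% and 49.9% soft-masked bases, and regions near Pgghg and P4ha2 were left out at 50.7% and 51.4%. The limit on libraries left out 133 regions with peaks in 1 PBS and 1 CTX library, whose median rank percentile was 38.8, against 47.1 for the regions kept with 3 libraries.

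The nearest TSS of any gene belonged to a protein-coding gene for 206 of 425 regions (48.5%), to a long intergenic non-coding RNA gene for 72 and to a processed pseudogene for 65. Lists of genes were therefore applied to the nearest protein-coding gene, also where another gene lay closer. That protein-coding gene was a developmental transcription factor for 130 of 425 regions (30.6%). In comparison, 3.54% of intergenic positions were nearest to one of these genes and 354 of 21992 protein-coding gene symbols (1.61%) were on the list. The share was 13.4% among 1972 promoter regions and 26.8% among 396 gene body regions that met the same criteria on libraries and repeats. These shares describe the regions and were not tested, because neighbouring regions are not independent.

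The 130 regions belonged to 85 different genes. Homeobox genes led the list, with 6 regions nearest to Uncx, a gene of somites and neurons, 4 each to Msx2, a factor of limb and skull, and Nkx6-1, a factor of pancreas and motor neurons, and 3 each to En1, Gbx2, Pax3, Pou3f2, Six3, Vax1 and Onecut3. Other genes on the list were Tbx5, a heart and forelimb factor, Neurog2, a proneural factor, and Foxd3, a factor of the neural crest. The remaining lists were short. There were 9 regions near adhesion and axon guidance genes, among them Epha7, Unc5a and Robo3, 5 near ion channels and neurotransmitter receptors, among them Grik3 and Kcnk1, and 3 near secreted signals, namely Bmp4, Wnt8a and Nrg2. Olfactory and vomeronasal receptors and ribosomal protein genes had 2 regions each, and 274 regions (64.5%) were nearest to a gene on no list. The lists were drawn by symbol and are not complete, since the homeobox gene Pdx1 was on none of them.

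For many of these regions the nearest protein-coding gene also bore the mark at its own promoter. A promoter is called marked here where a region within 2 kb of its TSS met the same criteria on libraries and repeats, and distances were taken to that region. Such a promoter was found for 76 of the 130 regions near developmental transcription factors (58.5%) and for 53 of the 274 regions near genes on no list (19.3%). These shares count regions, so a gene with several regions counts several times. Over the genome, counted by gene, 172 of 354 developmental transcription factor genes (48.6%) and 1459 of 22028 protein-coding genes (6.62%) had a marked promoter. By distance, 75 regions lay within 10 kb of a marked promoter, and 65.3% of them were nearest to a developmental transcription factor. The share was 42.6% of the 54 regions at 10 to 50 kb, 15.5% of the 84 regions at 50 to 200 kb and 21.2% of the 212 regions over 200 kb away. Close to 50% of the regions (49.9%) were thus farther than 200 kb from any marked promoter.

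**Figure D1:**
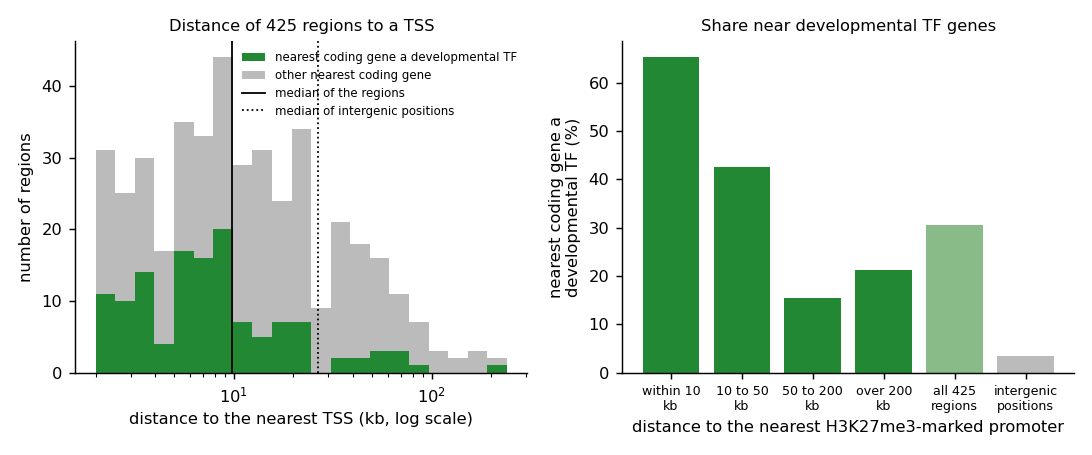
Left, number of the 425 regions by distance to the nearest TSS (kb, log scale), stacked by whether the nearest protein-coding gene encodes a developmental transcription factor (TF), with the median of the regions (9.81 kb) and that of intergenic positions (26.5 kb). Right, percent of regions nearest to a developmental TF by distance to the nearest marked promoter, which is 65.3% within 10 kb, 15.5% at 50 to 200 kb and 21.2% beyond, against 3.54% of intergenic positions.

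The regions were short and many stood in groups. Their median width was 596 bp, from 212 to 2162 bp. When neighbours within 100 kb were chained, the 425 regions formed 313 loci, of which 236 held 1 region, 56 held 2 and 21 held 3 or more. The locus with most regions spanned 132 kb of chromosome 5 (chr5:139551950-139683730) beside Uncx and Micall2, with 9 regions, 2 of them in all 6 libraries. A second locus on chromosome 5 (chr5:147192102-147313883) held 5 regions in 122 kb around Gsx1, Pdx1 and Cdx2, homeobox genes of the brain, pancreas and intestine, and none of these regions was in all 6 libraries. At chr8:78139149-78149467, 5 regions lay within 10.3 kb, and their nearest protein-coding gene Ttc29 was at 63.8 to 73.5 kb. At Msx2 there were 4 regions in 21.6 kb on both sides of the gene, and at Fcgr3, a receptor for antibodies on immune cells, 4 regions in 16.1 kb, 1 of which overlapped a transfer RNA gene.

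The regions were rich in GC but held fewer CpG dinucleotides than marked promoters. Their median GC content was 53.4%, against 40.3% in intergenic windows of 300 bp over the genome, 55.0% in gene body regions and 57.5% in promoter regions. The ratio of observed to expected CpG in 300 bp around the summit had a median of 0.259 in the intergenic regions, 0.314 in gene body regions and 0.435 in promoter regions, and 0.136 over intergenic windows. Windows with a GC content above 50% and a ratio above 0.6, here called CpG-island-like, made up 43 of the 425 regions (10.1%), 17.9% of gene body regions and 29.2% of promoter regions, against 0.13% of intergenic windows of the genome. Of the CpG-island-like regions 41.9% were nearest to a developmental transcription factor, and of the others 29.3%.

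**Figure D2:**
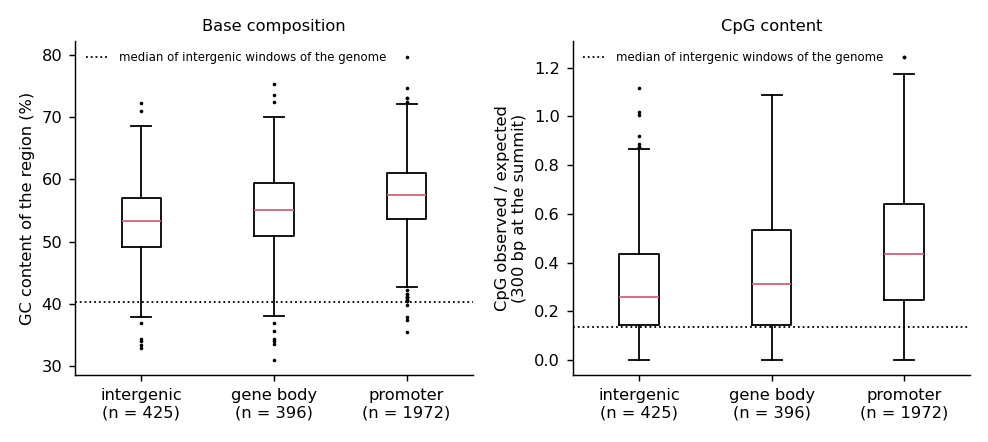
GC content of the region (%, left) and the ratio of observed to expected CpG in 300 bp at the summit (right) for intergenic, gene body and promoter regions. Boxes show the median and the quartiles, whiskers reach 1.5 times the height of the box, and the dotted line is the median of intergenic windows of the genome, below all 3 medians in both panels.

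Of the 425 regions, 122 had peaks in all 6 libraries, 89 in 5, 94 in 4 and 120 in 3. Of the 425, the PBS libraries held 394, 312 and 366 and the CTX libraries 283, 353 and 205, in the order of replicates 1, 2 and 3, as in all values by library below. The depth of the libraries, recovered from the peak lists as reads per Mb of effective genome, was 1957.5, 1375.5 and 1594.5 in the PBS group and 1433, 1629.5 and 1118 in the CTX group. PBS replicate 1, the deepest library, held the most of the regions and CTX replicate 3, the shallowest, the fewest. Between these the order was not that of depth, since PBS replicate 2 held more regions than the deeper CTX replicate 1. Without the criterion on libraries there were 3962 such regions, and 3078 of them (77.7%) were seen in 1 library only.

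Levels were compared in the 122 regions with peaks in all libraries. The other regions had no value in at least 1 library and were left out, so a level under the peak threshold could not be called. Of those left out, 62 had peaks in 3 PBS libraries and 1 CTX library, and 77 in 3 PBS and 2 CTX libraries. The reverse held for 8 regions with 3 CTX libraries and 1 PBS library, and for 12 with 3 CTX and 2 PBS libraries. The level of a region is its highest pileup, the number of reads, extended to 200 bp, that lay over the summit. It was divided by the depth of the library, set to 1000 reads per Mb, and is called the scaled pileup. The median scaled pileup of the 122 regions was 21.7, 22.5 and 25.1 in the PBS libraries and 18.8, 19.9 and 19.7 in the CTX libraries. All 3 CTX libraries were thus below the PBS libraries, with means of 23.1 ± 1.76 for PBS and 19.5 ± 0.576 for CTX (SD, n = 3 each). The same held over all 1020 regions under 50% soft-masked that had peaks in all libraries, at means of 26.1 ± 1.93 for PBS and 21.5 ± 0.579 for CTX (SD, n = 3 each). The smallest exact permutation p that 3 against 3 libraries allow is 0.1, so no such test could pass 0.05.

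The highest-ranked of these regions were not those near developmental genes. None of the 10 regions with the highest rank percentile was nearest to a gene on any list, and none of their nearest protein-coding genes had a marked promoter. They lay near Pak3, Gm10800, Axin2, Tmem125, Gm8797, Dpy19l1, Ifngr2, Frmd4a, Il17a and Plk2. Most were sharp, in that the summits of the 6 libraries fell within 8 to 26 bp of each other in 8 of the 10, against a median of 238 bp over the 122 regions, and within 205 bp for Il17a and 278 bp for Gm8797. Gm10800 is a gene model in a stretch of mm10 that is known to collect an excess of reads in many sequencing assays.

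By level they were spread widely. Plk2 had a scaled pileup of 10.7, 20.4 and 18.2 in the PBS libraries, below the medians of the 122 regions, and 33.5, 20.9 and 22.4 in the CTX libraries, above them. At Gm10800 (chr2:98664951-98665264) the scaled pileup was 370, 372 and 285 in the PBS libraries and 498, 446 and 632 in the CTX libraries. At Pak3 (chrX:143482906-143483209) it was 113, 119 and 75.9 in the PBS group and 137, 130 and 198 in the CTX group. At Axin2 (chr11:109011546-109012218), 67.9 kb from that gene and 3.90 kb from the processed pseudogene Gm11668, it was 118, 128 and 123 in the PBS group and 109, 123 and 96.6 in the CTX group. As scaled, the groups did not overlap at Plk2, Gm10800 and Pak3, where CTX was higher, and they overlapped at Axin2. Every CTX library was above every PBS library in 1.57% of all 1020 regions. Limma over these regions gave adjusted p = 0.0903 for Plk2, 0.0661 for Gm10800 and 0.0869 for Pak3. Before scaling the groups overlapped there too. Gm10800 had 725, 511 and 455 reads in PBS and 713, 726 and 707 in CTX. Pak3 had 221, 164 and 121 against 197, 212 and 221, and Plk2 had 21, 28 and 29 against 48, 34 and 25.

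Among the highest-ranked regions near developmental transcription factors, those at Sp5, Twist1 and Tfap2c had lower levels than those at Gm10800 and Axin2 in every library. Near Sp5 (chr2:70472566-70472786) the scaled pileup was 41.9, 53.1 and 47.7 in the PBS group and 30.0, 38.0 and 29.5 in the CTX group. Near Twist1 (chr12:33967298-33967893) it was 43.4, 44.3 and 42.0 in the PBS group and 24.4, 32.5 and 30.4 in the CTX group. At both regions every CTX library was below every PBS library, as in 37.6% of all 1020 regions. The log2 difference, CTX minus PBS, was −0.55 ± 0.17 for Sp5 and −0.58 ± 0.16 for Twist1 (SE), and neither passed the threshold over all 1020 regions (limma, adjusted p = 0.0743 and 0.0559). Near Tfap2c (chr2:172545729-172547533) it was 63.9, 58.2 and 57.7 in the PBS group and 45.4, 54.0 and 51.9 in the CTX group, again without overlap, with a log2 difference of −0.25 ± 0.16 (SE; limma, adjusted p = 0.239).

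**Figure D3:**
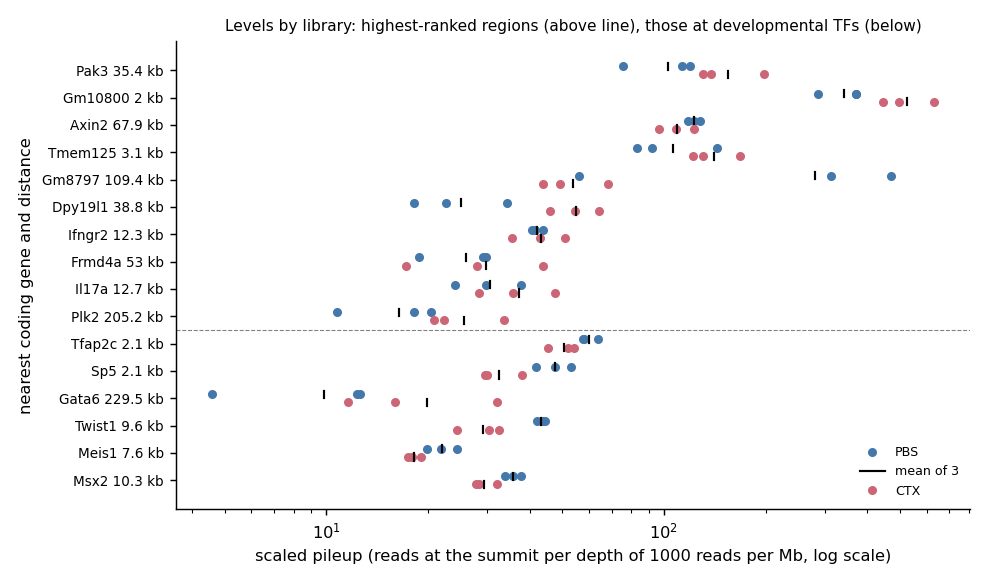
Scaled pileup (log scale) of each PBS and CTX library, with the mean of each group as a bar, for the 10 regions with the highest rank percentile (above the dashed line) and for 6 of the highest-ranked ones near developmental transcription factors (below), named by the nearest protein-coding gene and its distance. CTX points lie below PBS points near Tfap2c, Sp5, Twist1, Meis1 and Msx2, and above them near Pak3, Gm10800, Dpy19l1 and Plk2.

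To determine how the level of single regions differed between CTX and PBS, limma was run over all 1020 regions, 122 of them intergenic. Of the 122 intergenic regions, 0 were called lower in CTX and 1 was called higher at an adjusted p under 0.05. Over all regions 0.588% were called lower and 0.196% higher. Without adjustment, p was under 0.05 for 28 of the 122 intergenic regions with lower and 11 with higher values in CTX, and for 325 and 19 of the 1020. These counts rested on how limma estimated the spread. With a mean-variance trend, 9 intergenic regions were called lower and 5 higher, out of 95 and 6 of all 1020 regions. With a prior that is robust to outlying regions they were 4 and 5, out of 45 and 7.

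The median log2 difference was −0.21 over the 122 intergenic regions and −0.28 over all 1020 regions, with 85 of 122 (69.7%) and 920 of 1020 (90.2%) below 0. The value of this median depended on the scaling. It was −0.45 in pileups that were not scaled to depth, against −0.52 over all regions. When the libraries were given equal medians over the regions it was 0.06, against −0.003 over all regions. Equal medians bring the median over all regions close to 0 by construction, so they cannot show a shift that all regions share. In the authors' fold enrichment, the ratio of the pileup to a background local to the peak, it was 0.01, against 0.002 over all regions. Each CTX library lay below each PBS library in 32 of the 122 intergenic regions (26.2%) and above them in 11 (9.02%), whereas the figures over all regions were 37.6% and 1.57%. Regions with CTX above PBS were 16 of the 1020 in all, and 11 of these 16 were intergenic, 4 in gene bodies and 1 at a promoter.

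The regions were then described by their nearest protein-coding gene and by their distance to marked promoters, without a test. Over all 1020 regions the median log2 difference was −0.28, with 90.2% below 0, CTX below PBS in 37.6% and CTX above in 1.57%. For the 36 regions near developmental transcription factors it was −0.27, with 30 of 36 below 0, 14 with CTX below PBS and 1 with CTX above, but it was 0.00 with equal medians and 0.04 in fold enrichment, and −0.51 without scaling. For the 78 regions near genes on no list it was −0.14, with 50 of 78 below 0, 18 with CTX below PBS and 8 with CTX above. Equal medians shift all regions alike and so leave the contrast between these groups as it is. By distance to a marked promoter, the median as scaled was −0.30 in the 18 regions within 10 kb, −0.33 in the 14 at 10 to 50 kb, −0.18 in the 22 at 50 to 200 kb and −0.13 in the 68 farther away. Of the 11 regions with CTX above PBS, 10 were over 200 kb from a marked promoter and 1 was at 50 to 200 kb. The region with CTX above PBS near a developmental transcription factor, also chosen after its values were seen, lay 103 kb from Irx5 (chr8:92460958-92462380), with 24.5, 30.5 and 27.6 in the PBS libraries and 35.6, 32.5 and 34.0 in the CTX libraries (log2 difference 0.31 ± 0.16, SE; limma, adjusted p = 0.173).

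**Figure D4:**
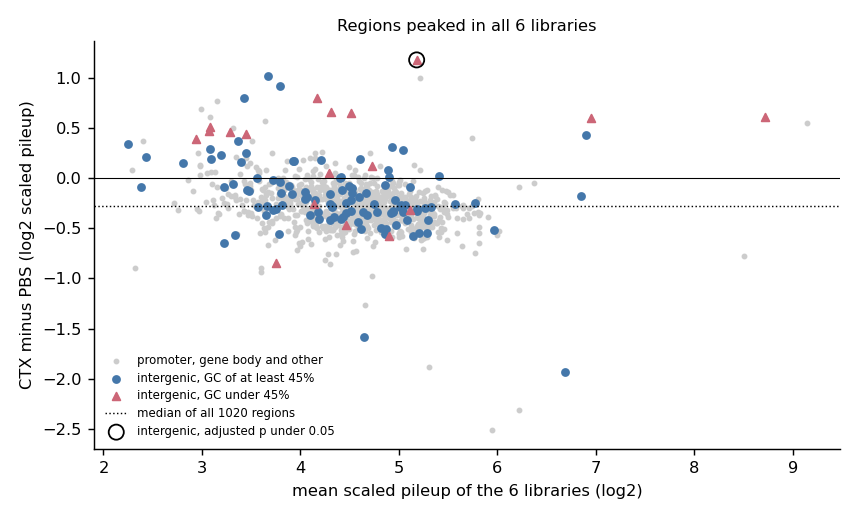
Difference CTX minus PBS (log2 scaled pileup) against the mean scaled pileup of the 6 libraries (log2) for the 1020 regions with peaks in all libraries, with intergenic regions in colour by GC content and the median of all regions (−0.28) as a dotted line. Of the 18 intergenic regions of GC content under 45%, 13 lie above 0, and the circled region near Dpy19l1 is the intergenic one called by limma.

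The one region called was at chr9:24541917-24542259, 38.8 kb upstream of Dpy19l1, a gene of C-mannosylation, and 38.5 kb from the non-coding RNA gene Gm47772. Its scaled pileup was 34.2, 22.5 and 18.2 in the PBS libraries and 46.1, 54.6 and 64.4 in the CTX libraries, with means of 24.98 ± 8.30 and 55.03 ± 9.18 (SD, n = 3 each). It was 2.26-fold higher in CTX (log2 difference 1.18 ± 0.22, SE; limma, adjusted p = 0.0135), and the exact permutation test of the libraries gave p = 0.1, the smallest value that 3 against 3 allow. Before scaling the pileups were 67, 31 and 29 reads in the PBS group and 66, 89 and 72 in the CTX group, so PBS replicate 1 and CTX replicate 1 held nearly the same number. The call was lost without PBS replicate 3 (log2 difference 0.97), CTX replicate 2 (1.18) or CTX replicate 3 (1.06), with peaks at a q-value of at most 1e-05 (1.18), in pileups that were not scaled (0.94) and in fold enrichment (0.46), that is, in 6 of 15 alternatives.

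The region near Dpy19l1 shared sequence with 3 others. Words of 24 bases held by more than 1 intergenic region were searched on both strands, leaving out words of low complexity, and regions with at least 5 words in common were joined. This gave 9 groups with 24 regions in all, and 1 group joined the regions near Gm10800, Tnc, Dpy19l1 and Pak3. Their windows of 200 bases on the plus strand of GRCm38 are given here. Capitals mark bases of words that lay wholly within the window and that at least 2 of the 4 regions held.
Gm10800, chr2:98665019-98665218: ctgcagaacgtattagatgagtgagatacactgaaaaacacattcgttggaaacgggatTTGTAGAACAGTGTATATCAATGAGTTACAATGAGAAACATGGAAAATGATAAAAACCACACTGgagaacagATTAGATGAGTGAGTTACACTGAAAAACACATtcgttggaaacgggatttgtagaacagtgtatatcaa
Tnc, chr4:64497864-64498063: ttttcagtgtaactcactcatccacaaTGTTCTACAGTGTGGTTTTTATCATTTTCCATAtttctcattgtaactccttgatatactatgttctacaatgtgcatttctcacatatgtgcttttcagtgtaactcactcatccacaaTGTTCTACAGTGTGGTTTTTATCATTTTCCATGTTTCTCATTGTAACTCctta
Dpy19l1, chr9:24541998-24542197: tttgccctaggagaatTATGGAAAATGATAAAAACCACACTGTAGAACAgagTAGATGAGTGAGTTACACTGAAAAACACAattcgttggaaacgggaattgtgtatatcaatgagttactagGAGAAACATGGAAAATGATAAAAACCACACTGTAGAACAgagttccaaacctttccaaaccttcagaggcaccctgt
Pak3, chrX:143482971-143483170: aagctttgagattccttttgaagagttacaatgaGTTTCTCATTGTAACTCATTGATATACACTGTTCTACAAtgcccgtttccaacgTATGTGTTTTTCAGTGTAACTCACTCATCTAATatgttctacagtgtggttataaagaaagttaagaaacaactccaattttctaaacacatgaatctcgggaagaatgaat

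The word gatgagtgagttacactgaaaaac was held by all 4 regions, on either strand, though near Tnc it does not lie wholly within the window shown. It occurred 10 times in the assembled chromosomes of GRCm38, on 6 chromosomes, and 6 of the 10 copies lay in these regions and in a gene body region near Chl1 (chr6:103648970-103649392), which shared words with them. All 4 had a GC content of 32.9% to 43.4%, were 12.7% to 33.6% soft-masked, and ranked at or above the 97.5 percentile, as 13 of the 122 regions did. In all 4 the scaled pileups of the CTX libraries were above those of the PBS libraries, with log2 differences from 0.60 to 1.18. Near Tnc (chr4:64497754-64498161, 451 kb from that gene of the extracellular matrix) the scaled pileup was 16.9, 16.0 and 9.41 in the PBS group and 25.8, 21.5 and 24.2 in the CTX group. The region near Chl1 had a log2 difference of 0.55 ± 0.17 (SE; limma, adjusted p = 0.0743). In fold enrichment the 4 differences were −0.07 near Gm10800, 0.10 near Pak3, 0.25 near Tnc and 0.46 near Dpy19l1. The part of reads placed among the copies of such sequence in these levels was not tested.

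Regions of low GC content stood apart in direction. A limit of 45% was set after the values were seen, so the regions are described without a test. The 18 intergenic regions below it had a median log2 difference of 0.45, with 13 of 18 above 0 and 8 with CTX above PBS, and the 104 others had a median of −0.25, with 24 of 104 above 0. Without the 4 regions that shared the sequence, the remaining 14 had a median of 0.25, with 9 of 14 above 0 and 4 with CTX above PBS. By library, the median scaled pileup of the 18 regions was 20.9, 20.4 and 17.9 in the PBS group and 26.2, 19.9 and 20.5 in the CTX group, so the groups overlapped, and that of the 104 regions was 21.7, 22.5 and 25.7 in the PBS group and 18.8, 19.9 and 19.7 in the CTX group. The medians were 0.73 and 0.03 with equal medians and 0.21 and −0.49 without scaling, but these scalings shift all regions alike and cannot change the gap. In fold enrichment, which can, they were 0.08 and 0.00. Over all 1020 regions, 28 had a GC content under 45%, 18 of them intergenic. The 28 had a median log2 difference of 0.42, with 8 of 28 below 0 and 12 with CTX above PBS. The 992 others had a median of −0.28, with 912 of 992 below 0 and 4 with CTX above PBS. The direction at low GC content was thus not particular to intergenic regions. Across the 122 regions the Spearman correlation of GC content with the difference was −0.14, a description over regions that share libraries. Depth was 1642.5 ± 294 for PBS and 1393.5 ± 258 for CTX (reads per Mb, SD, n = 3 each), and its part in this contrast was not tested.

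The 2 lowest differences, chosen after the values were seen, rested on PBS libraries 2 and 3. At chr3:5860239-5860926, 109 kb from Gm8797 and 20.1 kb from a predicted miRNA gene, the scaled pileup was 56.2, 472 and 312 in the PBS libraries and 44.0, 68.1 and 49.2 in the CTX libraries. The log2 difference was −1.94 ± 0.52 (SE; limma, adjusted p = 0.0551), and PBS replicate 1 lay within the range of the CTX group. Of its 656 words, 172 were shared with a gene body region near Ccdc3 (chr2:5378959-5379476), where the values were 23.5, 152 and 122 in the PBS group and 13.96, 23.3 and 26.8 in the CTX group. The same libraries were high there. Joining by shared words, directly or through another region, also put the region on chromosome 3 together with intergenic regions near Hic2 and Fbxo2. Near Hic2 the log2 difference was −0.27 ± 0.29 and the groups overlapped, and near Fbxo2 it was −0.39 ± 0.16 and they did not (SE; limma, adjusted p = 0.466 and 0.123).

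At chr6:3201273-3201771, 183 kb from Samd9l, it was 18.9, 105 and 41.4 in the PBS libraries and 13.3, 17.2 and 13.4 in the CTX libraries, with a log2 difference of −1.58 ± 0.40 (SE; limma, adjusted p = 0.0551). Of its 476 words, 172 were shared with the promoter region of the non-coding RNA gene Gm26917 (chr17:39843850-39848494), where mm10 holds a copy of the ribosomal RNA precursor gene. That region had 288, 798 and 465 in the PBS group and 299, 277 and 257 in the CTX group. PBS replicates 2 and 3 were thus the highest libraries at these 2 regions and at the gene body and promoter regions that shared words with them, which was not so near Hic2 and Fbxo2. The part of sequence held in several copies in these differences was not tested.

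Other differences without overlap of the groups fell short of the threshold. Near Cdk6, a cell cycle kinase (chr5:3319818-3320988, 20.5 kb, within a RefSeq gene body), the values were 22.99, 14.5 and 17.6 in the PBS libraries and 6.98, 11.7 and 12.5 in the CTX libraries (log2 difference −0.84 ± 0.23, SE; limma, adjusted p = 0.0551). Near Abcd3, a transporter of peroxisomes (chr3:121881856-121883563, 66.6 kb), they were 6.13, 10.2 and 8.78 in the PBS group and 13.96, 15.3 and 13.4 in the CTX group (0.80 ± 0.19; limma, adjusted p = 0.0551). Near Ly6c2, a surface antigen of myeloid cells (chr15:75085979-75087145, 24.6 kb), they were 19.9, 20.4 and 15.1 in the PBS group and 26.5, 30.1 and 29.5 in the CTX group (0.65 ± 0.17; limma, adjusted p = 0.0551). These 3 were chosen after their values were seen, as the ones with the lowest p-values that are not described above.

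Among the 122 regions, 5 were named as the farthest from any TSS. The first lay 229.5 kb from Gata6, an endoderm and heart factor that is also expressed in GCs, with a scaled pileup of 4.60, 12.4 and 12.5 in the PBS libraries and 32.1, 16.0 and 11.6 in the CTX libraries. CTX replicate 1 was far above the rest, and the groups overlapped (log2 difference 1.02 ± 0.37, SE; limma, adjusted p = 0.0902). The next ones were a region 169 kb from the non-coding RNA gene 2610028E06Rik and 239 kb from Grik3, one 128 kb from Gm13052 and 235 kb from Kazn, one 128 kb from a pseudogene and 298 kb from Ostf1, and one 109.6 kb from a pseudogene and 636 kb from Epha7, an ephrin receptor, the last within a RefSeq gene body. Their scaled pileups ranged from 6.13 to 23.8 over all libraries. The groups did not overlap at Epha7 only, with 6.13, 6.54 and 7.53 in the PBS group and 7.68, 9.82 and 8.94 in the CTX group (log2 difference 0.39 ± 0.16, SE; limma, adjusted p = 0.126).

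The width covered by peaks was not used to choose the regions. In the 122 regions the median covered width was 626.5, 449.5 and 601.5 bp in the PBS libraries and 400, 554 and 371.5 bp in the CTX libraries, with means of 559 ± 95.8 and 442 ± 98.2 bp (SD, n = 3 each), so the groups overlapped. The median log2 difference in width was −0.26, with 95 of 122 regions narrower in CTX, and −0.51 over all 1020 regions, with 933 of 1020 narrower. Limma called 0 intergenic regions narrower or wider (0 of 122 at an adjusted p under 0.05, 14 at an unadjusted p under 0.05, against 187 of all 1020 regions), and over all regions 0.196% narrower and 0% wider. Covered width depends on the depth of a library, since more of a domain passes the peak threshold in a deeper one, and the part of depth in these differences was not tested.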

How the data were processed

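Anti-H3K27me3 CUT&Tag was measured in 3 PBS and 3 CTX libraries of GCs. The authors trimmed reads with fastp, aligned them to mm10 with BWA, removed duplicates and reads that mapped to several places (mapping quality under 13), and ran MACS2 2.1.0 on each library, per their processing notes and methods. Each deposited list gives summits with a score, a fold enrichment (ratio) and −log10 p and q-values. Use of a control library is not given in the sources used here. In every library, all recovered backgrounds that were checked were multiples of 0.02, the step that a read extended to 200 bp gives over 10 kb. A background counted from the library's own reads has this step. Such a background includes reads of the peak itself, so fold enrichment can understate a difference in level. Lists hold peaks past the authors' q-value threshold of 0.05, so a region without a peak has no value.

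Overlapping intervals were merged within a library and then across libraries. Genes were taken from GENCODE on GRCm38 and sequence from the RefSeq copy of that assembly. The pileup at each summit was computed from the deposited fold and −log10 p-value as the whole number that gives both, which succeeded for 99.98% to 100% of summits, and depth was taken from the most frequent background. The steps were tested on simulated data. Levels are relative to that depth, as the lists carry no totals. Depth sets the precision of each value through counting error.

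Log2 scaled pileups and covered widths were fitted with limma 3.58.1 (R 4.3.3) without a block, with Benjamini-Hochberg adjustment over 1020 regions. The genes near the regions were sorted into lists by symbol family. Named regions were the 10 of highest rank and the 5 farthest from a TSS among those in all libraries, the called ones, the 5 loci with most regions, and those next to each limit. Other regions were chosen after their values were seen. The regions, lists and tests were chosen with earlier results of these data known. Alternatives were other scalings, filters, distances, annotations and thresholds, limma settings and leaving out each library. The search for shared words was added after the data were seen. A few named items are not reported here.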

Additional observations from a re-analysis of the deposited data

How the results depend on the processing

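The number of intergenic regions was 425. It was 180 with peaks at a q-value of at most 1e-05, 277 with equal numbers of peaks a library and 122 with all 6 libraries required. Other limits gave 284 to 622, and leaving out 1 library gave 311 to 392. The median log2 difference between CTX and PBS, −0.21 as scaled against −0.28 over all regions, moved with the scaling. It was 0.0642 with equal medians (−0.003 over all regions, close to 0 by construction), 0.0103 in fold enrichment (0.002) and −0.45 without scaling (−0.52). Leaving out 1 library gave −0.25 to −0.15. The calls by limma, 0 lower and 1 higher, with 6 and 2 over all regions, moved to 0 and 3 with equal medians (1 and 5 over all regions), 0 and 0 in fold enrichment (0 and 0; 8 intergenic regions at an unadjusted p under 0.05) and 3 and 0 without scaling (19 and 0). They were 1 and 3 when 2 libraries of each group sufficed (10 and 5) and 0 and 0 at a q-value of at most 1e-05 (0 and 1). The fit with a mean-variance trend gave 9 and 5 (95 and 6) and a robust prior 4 and 5 (45 and 7; these and the unscaled fit were added after the data were seen). Leaving out 1 library gave 0 to 6 lower and 0 to 5 higher. The counts were 6 and 5 without PBS replicate 1 (38 and 8 over all regions), 1 and 5 without PBS replicate 2 (15 and 7), and 0 and 0 without PBS replicate 3 (2 and 1), CTX replicate 2 (0 and 0) or CTX replicate 3 (3 and 1). Calls on width were 0 in all fits except without CTX replicate 2, where there was 1, a range of 0 to 1.

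With the replicate number as a block, 2 intergenic regions were called lower and 2 higher, out of 11 and 3 of all regions. Deviations of libraries with the same number correlated at 0.07, −0.06 and −0.01 for numbers 1, 2 and 3, and the labels tie no number to a shared animal or day, so the libraries share a number only. Over settings of the selection, the median distance to a TSS was 10.6 kb with all 6 libraries and 14.4 kb beyond 5000 bp. The share near developmental transcription factors was 34.4% at the stricter q-value and 28.0% beyond 5000 bp, and the median GC content was 53.0% to 53.9%. The shallowest library, CTX replicate 3, held a peak in 48.2% of the regions, and the part of depth in missing peaks was not tested.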

Other observations

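Other groups of intergenic regions shared words of 24 bases as well. On chromosome 14, 3 regions near the gene models Gm3696, Gm3727 and Gm10128 did, with peaks in 6, 5 and 3 libraries and a GC content of 71.0%, 67.2% and 72.3%, the last being the highest GC content of all intergenic regions. At Fcgr3, which encodes an immune receptor for antibodies, the outermost regions of the locus shared words. The one 4.5 kb from its TSS (chr1:171069438-171070074) had a log2 difference, CTX minus PBS, of −0.57 ± 0.16 (SE; limma, adjusted p = 0.0559) with no overlap of the groups. The other, 20.2 kb from it, had no peak in 1 of the 6 libraries and was not compared.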
